A study of Mus musculus with 25 samples.

Results

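Zona pellucida, oocyte growth factor and meiosis transcripts were followed in mouse embryos through 10 genes, Zp1, Zp2, Zp3, Astl, Gdf9, Bmp15, Oosp1, Mos, Gpr3 and Plat. They were taken by name, with earlier results of these data known, and each had 1 locus among the 24708 gene loci of every expression table. The 6 libraries of 2-cell embryos carry the age embryonic day 1.5, and the genotype label was WT, sIVF or IVF, with 2 libraries of each. The 5 libraries of blastocysts carry embryonic day 4.0, with 3 libraries labelled Fzr1-OE and 2 labelled Control. All are BDF1 embryos, with polyA RNA given as the molecule. IVF is in vitro fertilisation. What sIVF stands for is not explained in the labels, nor how Fzr1 was raised, how WT and Control embryos were conceived, or how many embryos made a library. Another 14 of the 25 samples in the series (chromatin and fat) were not analysed here.

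A growing mouse oocyte makes and stores messenger RNA, then falls silent, and the embryo lives on that store until its own genome is switched on, in the mouse mainly at the 2-cell stage. Stored messages are cleared in steps from the resumption of meiosis onward. ZP1, ZP2 and ZP3 build the zona pellucida, the coat around the egg, and ovastacin, the product of Astl, cuts ZP2 after fertilisation. GDF9 and BMP15 are secreted by the oocyte and act on the granulosa cells around it. MOS is the kinase behind arrest in metaphase of the second meiotic division, GPR3 is the receptor that keeps the oocyte in prophase through cyclic AMP, and Plat encodes tissue plasminogen activator, a textbook case of a message that is stored in the mouse oocyte and translated during maturation. OOSP1 is an oocyte-secreted protein.

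E-boxes, with the letters CANNTG, are the motif through which the oocyte factor FIGLA is known to act on zona genes. The 250 bases before the start of the 3 members with the highest mean level at the 2-cell stage are shown, 5′ to 3′ on each gene's own strand, with every CANNTG in capitals. They come from RefSeq (GRCm38.p6), at chr5:135979855-135980104 (plus strand) for Zp3, chr19:11691052-11691301 (minus strand) for Oosp1 and chrX:6320725-6320974 (minus strand) for Bmp15.
Zp3: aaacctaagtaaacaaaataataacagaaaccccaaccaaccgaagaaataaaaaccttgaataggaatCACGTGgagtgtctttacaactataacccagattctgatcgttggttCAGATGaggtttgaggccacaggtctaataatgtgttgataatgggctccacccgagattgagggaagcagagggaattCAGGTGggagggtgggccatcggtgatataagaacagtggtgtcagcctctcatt
Oosp1: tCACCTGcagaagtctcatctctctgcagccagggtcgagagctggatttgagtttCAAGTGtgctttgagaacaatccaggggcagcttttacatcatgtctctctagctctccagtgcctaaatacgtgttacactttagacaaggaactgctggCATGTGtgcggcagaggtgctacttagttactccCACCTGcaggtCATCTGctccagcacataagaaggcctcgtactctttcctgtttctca
Bmp15: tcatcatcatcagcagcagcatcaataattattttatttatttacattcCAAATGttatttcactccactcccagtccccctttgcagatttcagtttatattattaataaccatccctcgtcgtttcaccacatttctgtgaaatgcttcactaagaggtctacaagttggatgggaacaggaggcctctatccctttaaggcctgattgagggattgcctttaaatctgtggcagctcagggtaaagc
The Zp3 window held 3 CANNTG motifs, CACGTG 181 bases, CAGATG 134 bases and CAGGTG 55 bases before the start, and TATAA at 160 and 29 bases before it. The Oosp1 window held 5, at 249, 194, 93, 59 and 48 bases. The Bmp15 window held 1, CAAATG at 201 bases, a TATAA on the other strand at 154 bases and a TAATTA, the motif letters of the homeobox factor NOBOX, at 225 bases. Searched on both strands, CANNTG occurred in 66.2% of 32851 promoter windows of this length, TATAA in 22.8%, TAATTG or TAATTA in 11.3%, CACGTG in 6.02% and CAGGTG in 17.2%, and CACGTG and CAGGTG are also counted under CANNTG. The match is a description of letters only. Among the 10 members, 5 had a window. Besides the 3 shown, these were Gpr3, whose window held 0 CANNTG motifs, and Astl, whose windows held 0 and 3. Figla was listed at 0 in all 6 libraries of 2-cell embryos, and Nobox was above 0 in 3 of them, at 2.09 and 0.650 FPKM in WT and 0.235 FPKM in IVF replicate 1.

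Values are FPKM (fragments counted per length of transcript and per depth of library), a level scaled for transcript length, so that genes can be compared with each other within a library. From the deposited bounds, 2-cell libraries had 4742698 to 6377606 implied fragments, and blastocyst libraries were deeper, at 9324167 to 10483442. Between 10085 and 11860 loci were above 0 at the 2-cell stage and between 13658 and 13947 in blastocysts. At the 2-cell stage there were 10559 and 10085 in WT, 10235 and 10480 in sIVF and 11860 and 10703 in IVF. Both IVF libraries thus listed more loci above 0 than any other 2-cell library. IVF replicate 1 was also the deepest 2-cell library, but IVF replicate 2 had fewer implied fragments than WT replicate 2 and sIVF replicate 2. Counting error (2 standard deviations) at 1 FPKM was 28.2% to 32.6% at the 2-cell stage. Pearson's r of log2(FPKM + 1) across loci was 0.927 to 0.937 between the 2 libraries of a 2-cell group and 0.988 to 0.990 within a blastocyst group. WT replicate 2 correlated with the other 2-cell libraries at 0.917 to 0.927. Control blastocysts had 16.5 and 16.5 FPKM of Fzr1 itself, and the 3 libraries labelled Fzr1-OE had 12.7, 15.5 and 17.1 FPKM, so its RNA was not higher there and the groups are named by label only. In 2-cell embryos Fzr1 was at 0.117 and 0.233 FPKM in WT, 0.239 and 2.00 FPKM in sIVF and 7.69 and 10.1 FPKM in IVF.

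At the 2-cell stage RNA of every member was counted in at least 1 of the 6 libraries, but at very unequal levels. Oosp1 and Zp3 stood high among all loci by mean level, Bmp15 and Gdf9 were lower, Gpr3 was lower again, and Mos, Zp2, Plat, Astl and Zp1 were low or listed at 0 in several libraries. Summed over the 10 genes, the level was 120.1 and 90.4 FPKM in WT, 221.2 and 185.5 FPKM in sIVF and 140.4 and 181.2 FPKM in IVF. In blastocysts the same sum was 2.54 and 1.72 FPKM for Control and 2.43, 4.38 and 6.27 FPKM for the libraries labelled Fzr1-OE. Oosp1, Zp3, Bmp15 and Gdf9 made up 91.0% to 98.6% of the sum in every 2-cell library. No oocyte library was analysed, so the share of the oocyte level that remained cannot be given. The values are of polyA RNA, and message stored by the oocyte and RNA newly made by the embryo cannot be told apart in them. In whole-embryo samples, fewer cells that hold a message and less of it per cell cannot be told apart.

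**Figure D1:**
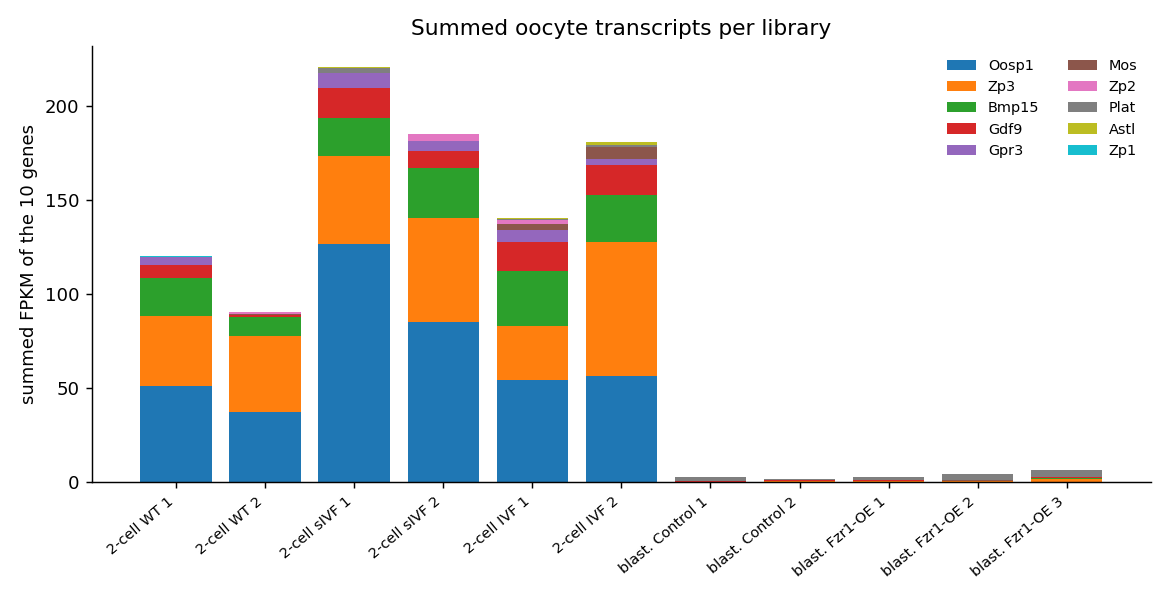
Summed FPKM of the 10 oocyte genes in each of 11 libraries, stacked by gene on a linear axis from 0. The 6 libraries of 2-cell embryos reach 90.4 to 221.2 FPKM, mostly from Oosp1, Zp3 and Bmp15, and the 5 blastocyst libraries stay between 1.72 and 6.27 FPKM.

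Among the zona genes, Zp3 was the only one above 1 FPKM in every library. It was at 36.9 and 40.5 FPKM in WT, 46.7 and 55.5 FPKM in sIVF and 28.4 and 71.3 FPKM in IVF, on 497 to 1149 implied fragments per library. The IVF libraries enclosed all the others. Zp2, whose product binds sperm, was at 0 and 1.23 FPKM in WT, 0.0410 and 3.86 FPKM in sIVF and 2.29 and 0.103 FPKM in IVF, so that every group held a library near 0 and a library above 1 FPKM. The 3.86 and 0.0410 FPKM of sIVF rested on 109 fragments and 1 fragment. Zp1, which cross-links the zona filaments, was at 0.186 and 0 FPKM in WT, 0.0477 and 0.165 FPKM in sIVF and 0 in both IVF libraries, on at most 4 fragments a library. The 3 partners of the same coat were thus present at mean levels of 46.5 FPKM for Zp3, 1.26 FPKM for Zp2 and 0.0665 FPKM for Zp1 over the 6 libraries. Astl was listed at 0 in both WT libraries, at 0.799 and 0 FPKM in sIVF and at 0.635 and 1.47 FPKM in IVF.

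Both oocyte growth factor genes were counted in all 6 libraries. Bmp15 was at 20.4 and 10.3 FPKM in WT, 20.1 and 26.8 FPKM in sIVF and 29.6 and 25.1 FPKM in IVF, on 428 to 1495 implied fragments. Gdf9 was at 7.02 and 1.16 FPKM in WT, 15.9 and 8.79 FPKM in sIVF and 15.3 and 15.6 FPKM in IVF. WT replicate 2 was the lowest of the 6 for both genes. Bmp15 exceeded Gdf9 in 6 of 6 libraries, but their proportion was not fixed: Gdf9 stood at 0.112 to 0.791 of the Bmp15 level within a library, with the extremes in WT replicate 2 and sIVF replicate 1. Oosp1 was at 51.3 and 37.2 FPKM in WT, 126.9 and 84.9 FPKM in sIVF and 54.4 and 56.6 FPKM in IVF. The sIVF libraries were above all 4 others, and the ratio of Oosp1 to Zp3 within a library ran from 0.793 in IVF replicate 2 to 2.72 in sIVF replicate 1.

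The meiosis genes were the least even. Mos was at 2.99 and 5.95 FPKM in the IVF libraries, on 62.2 and 108 implied fragments, and at 0 or, in WT replicate 2, 0.0555 FPKM (1 fragment) in the other 4. Gpr3 was at 4.36 and 0 FPKM in WT, 7.85 and 5.47 FPKM in sIVF and 6.50 and 3.56 FPKM in IVF, and the WT library at 4.36 FPKM rested on 106 fragments. Plat was listed at 0 in both WT libraries, at 2.70 and 0 FPKM in sIVF and at 0.240 and 1.48 FPKM in IVF. For Gpr3, Plat and Zp2, libraries of the same group lay on both sides of detection.

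**Figure D2:**
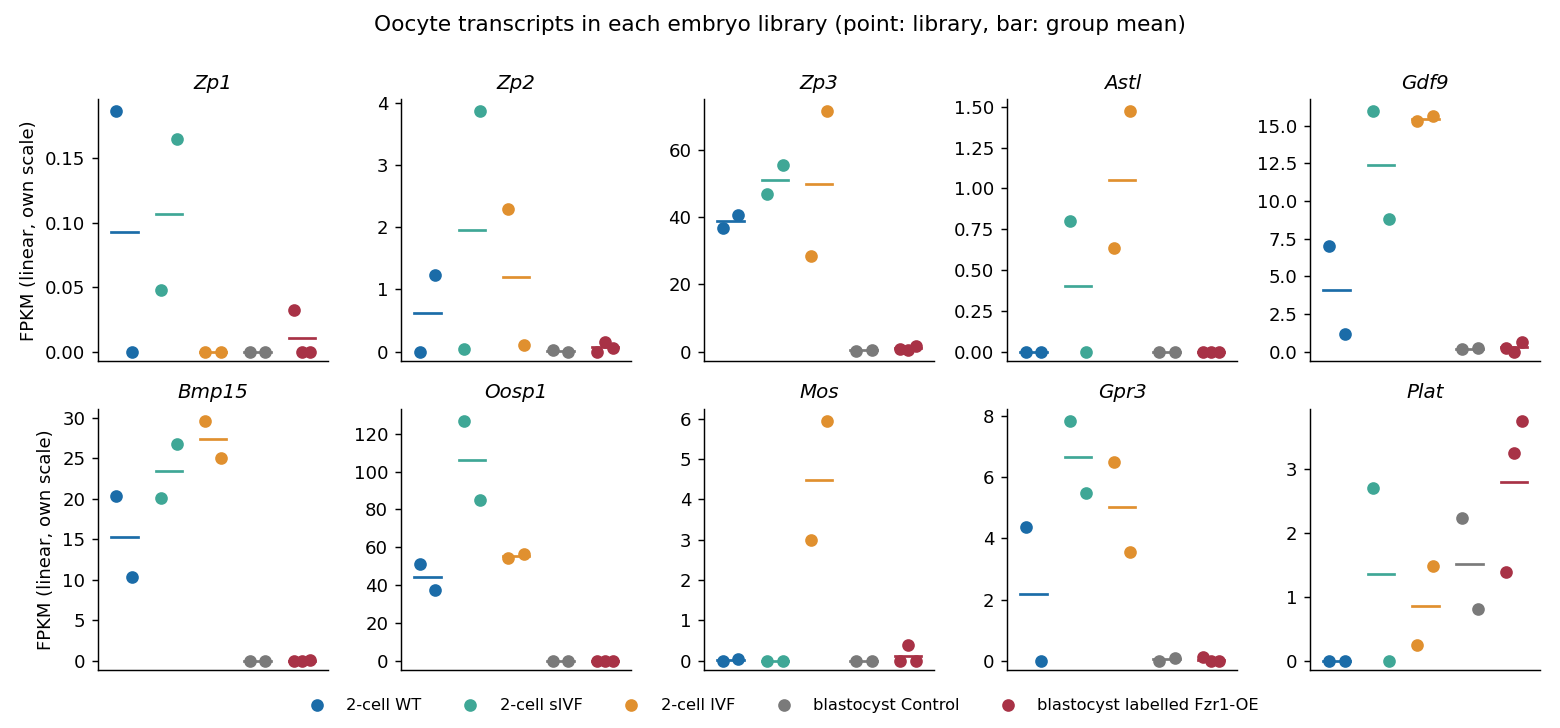
FPKM of each of the 10 genes by group, with a point for each library, a bar for the group mean and a linear axis of its own for each gene. Zp3, Gdf9, Bmp15 and Oosp1 are above 1 FPKM in all 6 libraries of 2-cell embryos, Mos only in the 2 IVF libraries, and Plat is the gene whose highest value, 3.76 FPKM, is in a blastocyst library.

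Ordered by the mean over the 6 libraries of 2-cell embryos, the levels were 68.6 ± 32.6 FPKM for Oosp1, 46.5 ± 15.2 FPKM for Zp3, 22.05 ± 6.82 FPKM for Bmp15 and 10.6 ± 6.02 FPKM for Gdf9 (SD over n = 6 libraries of 3 groups). Gpr3 (4.62 FPKM), Mos (1.50 FPKM), Zp2 (1.26 FPKM), Plat (0.738 FPKM), Astl (0.484 FPKM) and Zp1 followed. The ranges of each pair of neighbours in this order overlapped. Within libraries, Oosp1 exceeded Zp3 in 4 of 6, Zp3 exceeded Bmp15 in 5 of 6 and Gdf9 exceeded Gpr3 in 6 of 6. Among all 24708 loci, 96.7% had a lower mean than Oosp1, 95.4% than Zp3, 92.0% than Bmp15, 87.2% than Gdf9 and 80.7% than Gpr3. Between the 2 libraries of a group that were both above 0, the authors' deposited confidence bounds were apart in 16 of 20 pairs, so the spread was mostly wider than those bounds.

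Detection at these levels was uneven for loci in general, which was examined after the values of Gpr3, Plat and Mos were seen. Of loci at 3 to 6 FPKM in a 2-cell library, 5.93% to 11.8% were listed at 0 in the other library of the group, against 0% to 0.192% in blastocysts. From WT replicate 1 to WT replicate 2, the step that holds Gpr3, it was 160 of 1389 loci (11.5%). Of loci at 24 to 48 FPKM, the range of Bmp15 and Zp3 in several libraries, 0% to 1.29% were. A Mos-like pattern, at least 1 FPKM in both libraries of a group and at most 0.1 FPKM in the other 4, was shown by 39 loci for IVF (0.583% of loci at 1 FPKM or more in both), 11 for WT (0.180%) and 13 for sIVF (0.208%). Both IVF libraries also listed more loci above 0 than the other 4. Any part of this in the values of Mos, Astl and Plat was not tested. A value of 0 is therefore given here as listed at 0.

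The 3 comparisons among 2-cell groups ask whether RNA of these oocyte genes differed between embryos labelled WT, sIVF and IVF. In IVF against WT, Mos, Gdf9, Bmp15 and Oosp1 were higher in both IVF libraries than in either WT library, and in sIVF against WT this held for Oosp1, Gdf9, Gpr3 and Zp3. None of the members passed the test in any of the 3 comparisons. The test was limma on log2(FPKM + 1) over the 8246 loci whose mean reached 1 FPKM, adjusted over all of them, and 7 of the 10 members were tested, Zp1, Astl and Plat being too low. In IVF against WT it called 0.0121% of loci, in sIVF against WT 0% and in sIVF against IVF likewise 0%. At an unadjusted p under 0.05 stood 12.4%, 7.09% and 11.8% of loci, in that order. Nothing in the labels ties replicates to separate animals or cultures, so the p-values reflect only the spread of these samples, which may be technical.

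For IVF against WT the largest fitted differences were those of the MOS kinase gene and a growth factor gene. For Mos it was 2.36 (log2, SE 0.74, 95% interval 0.65 to 4.06, limma adjusted p = 0.261). It stood at 4.47 FPKM on average in IVF and 0.0277 FPKM in WT, and it reached the filter of 1 FPKM through the IVF libraries alone. With no filter on low values, which keeps all 10 members in the fit, the interval was 1.21 to 3.51 (limma adjusted p = 0.248). Gdf9 had 1.99 (SE 0.66, interval 0.46 to 3.51, limma adjusted p = 0.298), and 1.04 without WT replicate 2. Gpr3 followed at 1.34 (limma adjusted p = 0.594), at 0.13 without WT replicate 2, the library in which it was listed at 0, and at 2.55 without WT replicate 1. Bmp15 had 0.86 (interval -0.08 to 1.80, limma adjusted p = 0.448), with 0.41 without WT replicate 2 and 1.32 without WT replicate 1. Zp2, Oosp1 and Zp3 had 0.35, 0.34 and 0.22, and Oosp1 was at 0.11 without WT replicate 2 and at 0.57 without WT replicate 1. Both IVF libraries lay above both of WT in 4 of the 7 members tested, against 22.8% of all loci tested. These were Mos, which passed the filter through IVF alone, Gdf9, Bmp15 and Oosp1. Below the filter, where no share of loci was counted, the same held for Astl and Plat, both listed at 0 in WT. With no filter the log2 fold changes of Astl and Plat were 1.007 (limma adjusted p = 0.556) and 0.81 (limma adjusted p = 0.746).

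For sIVF against WT, the largest single difference relative to its error was in Oosp1, at 105.9 ± 29.7 FPKM in sIVF and 44.2 ± 9.99 FPKM in WT (SD, n = 2 each). Its log2 fold change was 1.23 (SE 0.30, interval 0.55 to 1.91, limma unadjusted p = 0.00297, adjusted p = 0.466). Gpr3 had 1.71 (SE 0.84, limma adjusted p = 0.740) and Gdf9 1.63 (SE 0.66, limma adjusted p = 0.674), which came to 0.50 and 0.68 without WT replicate 2 and to 2.92 and 2.58 without WT replicate 1. Bmp15 had 0.64, with 0.18 without WT replicate 2 and 1.096 without WT replicate 1. Zp2 had 0.59, with 0.0105 without WT replicate 1, 1.17 without WT replicate 2 and 1.70 without sIVF replicate 1. Zp3 had 0.39 and Mos -0.04. Groups did not overlap, with sIVF higher, in 4 of the 7 members tested and in 20.6% of all loci tested. Both comparisons use the same WT libraries, so the members' higher values in each are not separate observations.

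The third comparison set sIVF against IVF. The log2 fold change of Mos was -2.40 (SE 0.74, interval -4.10 to -0.69, limma adjusted p = 0.265), with both sIVF libraries listed at 0. Oosp1 was 0.89 (SE 0.30, interval 0.21 to 1.57, limma adjusted p = 0.292). The other 5 tested members lay between -0.35 for Gdf9 and 0.37 for Gpr3, with limma adjusted p-values of 0.880 to 0.952, with intervals from -2.09 to 2.57 for Zp2, the widest, and from -1.17 to 0.72 for Bmp15. Groups did not overlap for Oosp1 (sIVF higher, as in 21.7% of loci tested) and for Mos (sIVF lower, as in 21% of loci tested). Below the filter, at 0.165 FPKM or less, Zp1 was higher in both sIVF libraries, and no share of loci was counted at this level. The shared sum of the 10 genes was higher in both sIVF than in both IVF libraries in FPKM, but as a share of each library's summed FPKM the groups overlapped, at 0.0658% and 0.0578% in sIVF and 0.0431% and 0.0586% in IVF. In WT this share was 0.0388% and 0.0303%.

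**Figure D3:**
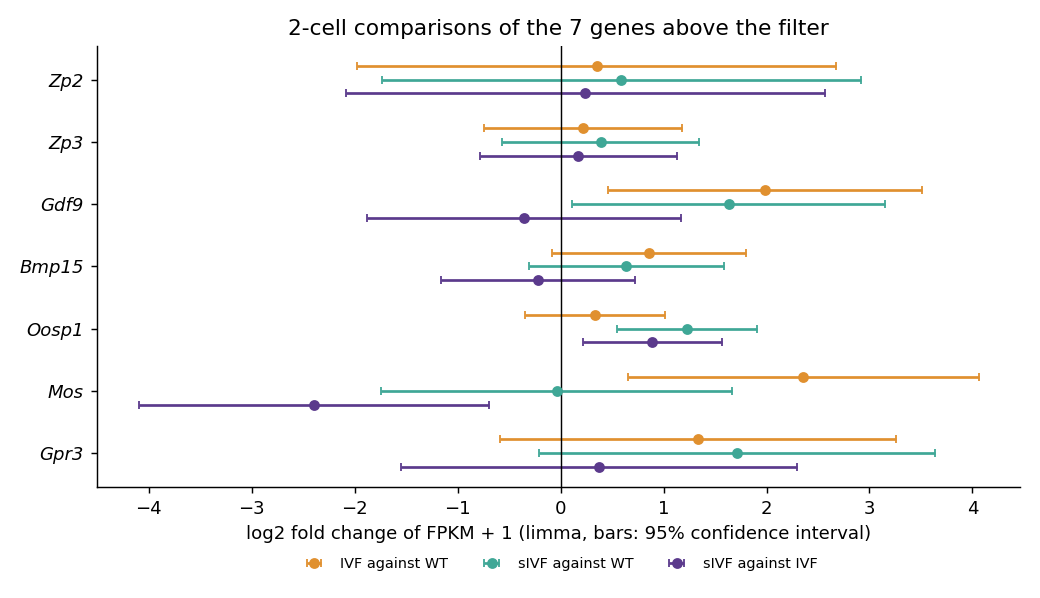
Log2 fold changes of FPKM + 1 from limma for the 7 members tested at the 2-cell stage, with 95% confidence intervals as bars and a colour for each of 3 comparisons. The intervals of Mos and Gdf9 for IVF against WT and of Oosp1 for sIVF against WT lie above 0, but none of the 7 passed after adjustment over 8246 loci.

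Markers of the cells that could come along with an early embryo were low. Of 20 cumulus and granulosa cell markers, 15 were listed at 0 in every 2-cell library, among them Foxl2, Fshr, Cyp19a1 and Has2. Their summed level was 1.26 to 5.35 FPKM in WT, 1.38 to 5.67 FPKM in sIVF and 6.93 to 8.17 FPKM in IVF, almost all from Amhr2 and Tnfaip6. The sum was thus higher in the IVF libraries, as Mos was. In IVF it came from Amhr2 (8.17 and 3.45 FPKM) and Tnfaip6 (0 and 3.48 FPKM), and 18 of the 20 were listed at 0 in both libraries. Amhr2 was also at 1.12 to 3.84 FPKM in blastocysts. Any part of these cells in the Mos value was not tested. Sperm markers summed to 7.40 to 15.7 FPKM in WT, 15.6 to 22.5 FPKM in sIVF and 12.8 to 13.4 FPKM in IVF, most of it from Ldhc, Odf2 and Pgk2. Of the sperm genes Prm1, Tnp2, Smcp and Spata18 were listed at 0 in all 6, while Prm2, Tnp1 and Odf1 were at 0.869, 0.558 and 1.78 FPKM in IVF replicate 1. Blood markers summed to 1.43 to 7.81 FPKM over the 6 libraries, with Hbb-b1 and Ptprc listed at 0. By stage, 8 of 18 genes of the 2-cell stage list were higher in all 6 libraries of 2-cell embryos than in all 5 of blastocysts. The share was 17.1% of loci whose mean reached 1 FPKM, a filter not set for the list, and 1 listed gene, Eif1a, was lower in all. Of 20 blastocyst lineage genes 16 were lower in all 6, against 43% of such loci, and 1, Gata4, was higher in all.

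In blastocysts almost nothing of these messages was counted, except for Plat. Zp3 was at 0.107 and 0.579 FPKM in Control and, under the Fzr1-OE label, at 0.660, 0.595 and 1.76 FPKM. Gdf9 was at 0.146 and 0.253 FPKM in Control and at 0.241, 0 and 0.617 FPKM in the others, and Bmp15 reached at most 0.0894 FPKM (5 fragments). Oosp1 and Astl were listed at 0 in all 5 libraries. Gpr3 reached at most 0.113 FPKM, Zp2 0.147 FPKM and Mos 0.385 FPKM (8 fragments, in 1 library labelled Fzr1-OE). Plat was at 2.23 and 0.803 FPKM in Control and at 1.38, 3.25 and 3.76 FPKM with the Fzr1-OE label, and the groups overlapped. It was the only member tested there, with a log2 fold change of 0.59 (SE 0.37, interval -0.24 to 1.43, limma adjusted p = 0.427; 0.17 without Control replicate 2 and 1.01 without Control replicate 1), where 2.29% of 9439 loci were called higher and 1.92% lower. For Zp3, below the filter, the lowest library labelled Fzr1-OE was at 0.595 FPKM and the highest of Control at 0.579 FPKM. How many loci show such an order was not counted. With no filter the log2 fold change of Zp3 was 0.55 (limma adjusted p = 0.569).

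Set against Control blastocysts, the 2-cell WT libraries held far more Zp3, Bmp15 and Oosp1 and more Gdf9. Zp3 was 112.8-fold higher by group means of FPKM, at 38.7 ± 2.56 against 0.343 FPKM, and Gdf9 20.5-fold higher, at 4.09 ± 4.14 against 0.199 FPKM (SD, n = 2). Single libraries set these folds: that of Zp3 was 66.8 without Control replicate 1 and 363 without Control replicate 2, and that of Gdf9 was 5.81 without WT replicate 1 and 35.2 without WT replicate 2. The Control value of Bmp15 rested on 1 fragment and that of Oosp1 on none, so no fold is given for them. Of loci whose mean over the 11 libraries reached 1 FPKM, 17.1% had all 6 libraries of 2-cell embryos above all 5 of blastocysts. This held for 4 of the 6 members that reached that mean, these same 4. They reached it through the 2-cell libraries alone, so the count is no support. All 6 were below for 0 members, against 43% of such loci. In each of the other members at least 1 library of 2-cell embryos was listed at 0.

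The fit over all 11 libraries called 19.6% of 9762 loci higher and 45.8% lower at the 2-cell stage. It took in 6 members, and since 5 of these reached the filter through the 2-cell libraries alone, their calls in it are no support. Plat reached it through the blastocyst libraries, at a mean of 2.29 FPKM there against 0.738 FPKM in 2-cell libraries. The p-values given are those with no filter on low values, a fit that took in all 10 members and called 10.8% of 17881 loci higher and 28.3% lower. The log2 fold change was 5.48 for Oosp1 (SE 0.23, limma adjusted p = 3.19e-06), 4.91 for Zp3 (SE 0.45, limma adjusted p = 0.000123), 3.94 for Bmp15 (SE 0.31, limma adjusted p = 5.65e-05) and 1.80 for Gdf9 (SE 0.59, limma adjusted p = 0.0465). The other 6 members did not pass, with Gpr3 at 1.15 (SE 0.70, limma adjusted p = 0.247) and Plat at -1.27 (SE 0.68, limma adjusted p = 0.196). With the filter, the median of all loci was -0.88 on this scale, and with quantile normalization it was 0.02. Of the loci called, 29.9% were higher at the 2-cell stage as reported, against 51.7% with quantile normalization, 47.8% with upper-quartile scaling and 45.8% with scaling to the same summed FPKM. Over the 21 alternatives to the filtered fit the log2 fold changes spanned 5.25 to 8.77 for Oosp1, 4.65 to 6.69 for Zp3 and 3.49 to 7.06 for Bmp15. In that fit Gdf9 lost its call without WT replicate 1 (0.85, limma adjusted p = 0.112), without Control replicate 1 or 2 (limma adjusted p = 0.0877 and 0.0696) and in a fit of only the libraries compared (0.106). Gpr3 was at -0.06 without WT replicate 1 and at 2.36 without WT replicate 2. WT and Control differ in stage and possibly in experiment and preparation, which the labels do not state, and these cannot be told apart.

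**Figure D4:**
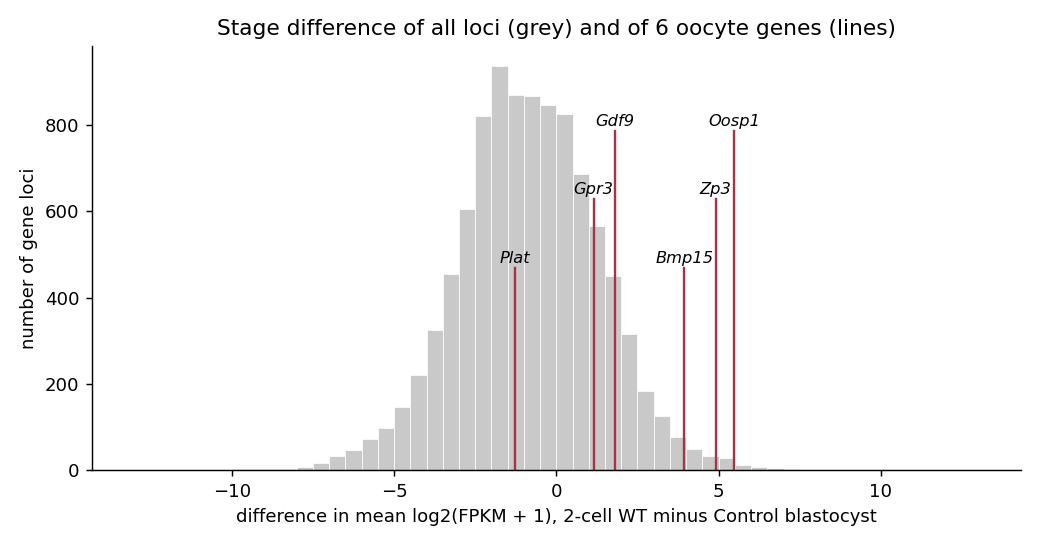
Histogram of the difference in mean log2(FPKM + 1) between 2-cell WT and Control blastocyst libraries for 9762 loci, with lines at the 6 oocyte genes tested. Oosp1, Zp3 and Bmp15 lie far to the right at 5.48, 4.91 and 3.94, Gdf9 and Gpr3 at 1.80 and 1.15, and Plat left of 0 at -1.27, while the median locus is at -0.88.

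The partners of the members were described from lists of genes. No listed gene outside the members passed in any 2-cell comparison either. Oosp2 and Oosp3, named like Oosp1, were below it in each of the 6 libraries of 2-cell embryos, Oosp3 at 22.3 to 31.7 FPKM and Oosp2 at 14.1 to 35.3 FPKM, and both were listed at 0 in all 5 of blastocysts. Cd9, the egg surface protein needed for sperm fusion, was at 81.4 to 134.6 FPKM at the 2-cell stage and 1294 to 1509 FPKM in blastocysts. By stage, the filtered fit called 19.6% of all loci tested higher and 45.8% lower in 2-cell WT than in Control. In the oocyte surface list 3 of 4 tested genes were higher and 1 lower at the 2-cell stage, with a median log2 fold change of 3.02. Of the oocyte transcription factors, 1 of 4 tested was higher and 2 were lower, with a median of -0.90, close to the -0.88 of all loci. Taf4b, a germ-cell subunit of TFIID, was at 4.97 to 15.7 FPKM at the 2-cell stage, and Lhx8, an oocyte homeobox gene, at 0 to 8.48 FPKM.

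Genes of the members' pathways were read by list. The filtered stage fit called 19.6% of all loci tested higher and 45.8% lower at the 2-cell stage. In the list of GDF9 and BMP15 signalling, 4 of 14 tested genes were higher and 4 lower in 2-cell WT than in Control, with a median of 0.33. Kit, the receptor tyrosine kinase of the oocyte, was at 2.59 to 11.8 FPKM at the 2-cell stage and at most 0.387 FPKM in blastocysts, the inhibitory Smad7 at 2.88 to 9.29 FPKM and the receptor gene Bmpr1a at 3.38 to 9.19 FPKM. In the MOS cascade and metaphase arrest list 4 of 19 were higher and 9 lower, close to the shares of all loci. Its median was -1.14, against -0.88 for all loci. Its most abundant genes were far above Mos, with cyclin B1 (Ccnb1) at 447.7 to 552.2 FPKM, Ywhae, which encodes a 14-3-3 protein, at 156.5 to 289.5 FPKM and the spindle checkpoint gene Mad2l1 at 125.6 to 188.7 FPKM. For GPR3 and cyclic AMP 0 of 8 were higher and 3 lower (median -0.14), and the anchoring protein gene Akap1 and the kinase subunit genes Prkar1a and Prkaca were at 5.65 to 18.0 FPKM in 2-cell libraries. All 6 tested genes of the plasminogen list were lower at the 2-cell stage, with a median of -5.36. Anxa2, a cell surface annexin that binds tissue plasminogen activator, was at most 1.35 FPKM at the 2-cell stage and at 255.9 to 293.2 FPKM in blastocysts, and the inhibitor gene Serpine2 was at 0 to 15.5 and 32.6 to 46.8 FPKM.

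Other maternal messages were read from a list of 34 genes, and no test set them against the members. Of these, 32 had a mean of at least 1 FPKM at the 2-cell stage, as had 7 of the 10 members, and the medians of their means were 9.35 and 3.06 FPKM. In 2-cell WT against Control 21 of 31 tested were higher and 5 lower (median 2.39), against 19.6% and 45.8% of all loci tested. All 6 libraries of 2-cell embryos were above all blastocyst libraries for 19 of 34, against 17.1% of loci whose mean reached 1 FPKM. Omt2a and Omt2b, oocyte maturation genes, were at means of 4989 and 3393 FPKM at the 2-cell stage and 0.677 and 0.853 FPKM in blastocysts, and Dppa3, a maternal factor protecting DNA methylation, was at 5110 and 3748 FPKM. The 5 that were lower, named after their values were seen, were Khdc3, Ooep, Trim28, Uhrf1 and Zfp57. For mRNA storage and clearance 10 of 24 were higher and 6 lower (median 0.38). Btg4, the adaptor that brings the deadenylase to maternal messages, was at 69.7 to 171.6 FPKM in 2-cell libraries and listed at 0 in all 5 of blastocysts, as Oosp1 was. Of the meiotic prophase genes 7 of 14 were higher and 1 lower (median 1.26), with Syce2 at a mean of 144.4 FPKM and Hormad1 at 66.9 FPKM. Listed genes, like the members, could reach the filter through a single stage, so the list counts by stage are descriptions only.

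In blastocysts labelled Fzr1-OE, 5 of the 93 tested genes in 9 oocyte lists (5.38%) were called higher and 3 (3.23%) lower, against 2.29% and 1.92% of all loci. Hormad1, a meiotic chromosome axis gene, was higher, at a mean of 12.97 FPKM against 6.25 FPKM in Control (log2 fold change 0.97, SE 0.20, limma adjusted p = 0.0306), Foxo3, which restrains follicle growth, from 3.52 to 7.67 FPKM (limma adjusted p = 0.0322) and Oas1e from 2.12 to 8.09 FPKM (limma adjusted p = 0.0242), while Dppa3 rose by 0.31 (SE 0.04). Cd9 changed by -0.20 (SE 0.05), Pcsk6, a proprotein convertase of TGF-beta ligands, by -0.87 (SE 0.18) and Serpinb6c by -0.45 (SE 0.10), each lower in libraries labelled Fzr1-OE. Mlana rose from 0.548 to 2.59 FPKM (limma adjusted p = 0.0408). It is counted among the 5 called higher, but it reached the filter only through the libraries labelled Fzr1-OE, so its call is no support. None of these 8 calls was kept with no filter on low values (limma adjusted p = 0.109 to 0.191), without the intensity trend, with a replicate block, without Control replicate 2 or without Fzr1-OE replicate 3. Leaving out Control replicate 1 ended 5 of them, and omission of the first or the second library labelled Fzr1-OE ended 4 and 6. None of the 18 tested genes of the MOS cascade and none of the 9 of the cyclic AMP list passed.

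The members varied unequally across the 6 libraries of 2-cell embryos. Against the mean of the standardised log2(FPKM + 1) of the 7 members with a mean of at least 1 FPKM, Pearson's r was 0.918 for Bmp15, 0.915 for Gdf9, 0.841 for Gpr3, 0.644 for Oosp1, 0.472 for Mos, 0.363 for Zp3 and 0.146 for Zp2. Each is part of that mean. Of 3267 other loci whose mean reached 10 FPKM, the most similar by r were Rac1 (0.994), a small GTPase gene, Thumpd1 (0.986), Psmc2 (0.977), a proteasome subunit gene, Mrpl39 (0.971) and Tmem192 (0.967). With 6 points that share libraries, 11 loci (0.337%) exceeded 0.95, so these are descriptions only. Rac1 was at 23.9 ± 7.88 FPKM in 2-cell embryos (SD, n = 6) and at a mean of 57.9 FPKM in blastocysts.

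In the mm9 coordinates of the tables the members lie at chr19:10988787-10995091 (Zp1), chr7:127275875-127288804 (Zp2), chr5:136455975-136464494 (Zp3), chr2:127164375-127183391 (Astl), chr11:53246788-53251404 (Gdf9), chrX:5891224-5897841 (Bmp15), chr19:11741950-11765541 (Oosp1), chr4:3797805-3799252 (Mos), chr4:132765255-132768451 (Gpr3) and chr8:23868194-23893320 (Plat). None overlaps another listed locus. Zp1 and Oosp1 share chromosome 19 and Mos and Gpr3 chromosome 4. Exons and untranslated regions are not stated, since no mm9 annotation was used here.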

How the data were processed

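RNA values of 11 embryo libraries were used. Lysates were reverse transcribed and the cDNA amplified for 18 to 20 cycles before paired-end sequencing, per the labels' protocols. Each table deposited by the authors gives FPKM for every gene locus and a confidence interval around it. Build mm9 and HISAT2 2.1.0, Cufflinks 2.2.1 and Cuffdiff are among those named in the submitters' processing notes, without roles. Starts in the tables count from 0 and are given from 1. The tables hold no counts. Implied fragments were computed by reading half-widths of the intervals as 2 Poisson standard deviations, and cover counting error only.

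Groups came from the sample titles. limma 3.58.1 (R 4.3.3) was run on log2(FPKM + 1), using eBayes and an intensity trend, for loci whose mean over the fitted libraries reached 1 FPKM, with Benjamini-Hochberg adjustment over all loci and a threshold of 0.05. A single fit took the 6 libraries of 2-cell embryos and another the 5 of blastocysts, and all 11 were fitted for the stage comparison. Fold changes on this scale understate the change of low genes. The steps were tested on simulated data. Python 3.11.15, pandas 2.3.3, numpy 2.4.6 and matplotlib 3.10.9 were also used.

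The members and the 15 gene lists were chosen with earlier results of these data known. All members are named. From each list the 3 genes with the highest mean at the 2-cell stage, or fewer, and up to 3 that passed in a 2-cell or blastocyst comparison (smallest p) could be named, and for likeness the 5 highest r. Alternatives were a pseudocount of 0.1, no filter or a filter of 5 FPKM, quantile, upper-quartile and summed-FPKM scaling, robust estimation, leaving out the intensity trend, a replicate block, fits of only the libraries compared, group means over stages and leaving out each replicate. The gene ontology tables of fat were not used here.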

Additional observations from a re-analysis of the deposited data

How the results depend on the processing

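Counts of loci that passed moved most. For IVF against WT, 1 locus passed, and 0 did with a pseudocount of 0.1 FPKM, no filter, quantile normalization, no intensity trend or only the libraries compared, while a filter of 5 FPKM gave 21 (12 higher, 9 lower). Leaving out each replicate gave 0 to 0. For sIVF against IVF, 0 passed, and a filter of 5 FPKM gave 32 (24 higher, 8 lower), quantile normalization 15 (9 and 6) and scaling to the same summed FPKM 15 (8 and 7). For sIVF against WT 0 passed in every alternative run. In blastocysts the 397 came to 0 with no filter, 41 with no intensity trend (30 higher, 11 lower) and 87 to 350 without 1 replicate, namely 87 and 177 when Control replicate 2 or 1 was left out and 185 and 210 when Fzr1-OE replicate 3 or 2 was. The stage count ran from 5034 to 6669 without 1 replicate. None of the members passed in any alternative of the 2-cell or blastocyst comparisons, and 3 to 5 did so by stage without 1 replicate, and 6 when the means of all 2-cell and all blastocyst groups were compared.

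Replicate numbers did not pair the samples: deviations from group means correlated at -0.003, 0.07 and -0.001 between 2-cell groups and at -0.008 in blastocysts. With a replicate block 47 loci passed in blastocysts (23 higher, 24 lower), and 0 members passed in the 2-cell and blastocyst comparisons, the ones it was run for. It was not fitted between the stages.

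Some members turned sign without passing. Without 1 replicate, Zp2 ran from -0.44 to 1.14 for IVF against WT (-0.44 without IVF replicate 1, -0.23 without WT replicate 1) and Zp3 from -0.43 (without IVF replicate 2) to 0.87. For sIVF against IVF, Gdf9 ran from -0.75 to 0.0409 (without sIVF replicate 2), Zp3 from -0.48 (without IVF replicate 1) to 0.82 and Zp2 from -0.55 (without IVF replicate 2) to 1.35. By stage, Gpr3 ran from -0.0614 (without WT replicate 1) to 2.36. Plat passed by stage in 4 alternatives. These were a pseudocount of 0.1 (-3.86, limma adjusted p = 0.0470), group means (-0.98, limma adjusted p = 0.0451) and leaving out sIVF replicate 1 or 2. Gpr3 passed by stage in 2 alternatives, among them group means (2.17, limma adjusted p = 8.40e-04). The cause was not tested. Gpr3 reached the filter of these fits through the 2-cell libraries alone and Plat through the blastocyst libraries. Their calls are thus no support. With no filter neither passed (limma adjusted p = 0.247 for Gpr3 and 0.196 for Plat). Where 1 library of a group was left, it was assumed to vary like the others. Of 455 log2 fold changes of members under alternatives, 438 kept direction and side of the threshold, 7 turned sign, 6 newly passed and 4 no longer did. Some settings cannot alter a fold change: the filter, robust estimation, the intensity trend, or leaving out a library of a group not compared. No member passed at the 2-cell stage to begin with. The count of 438 is thus no measure of robustness.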
